A study of Mus musculus with 19 samples.

Results

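The clustered protocadherins are cell-surface cadherins encoded by the Pcdha (alpha), Pcdhb (beta) and Pcdhg (gamma) gene clusters, which lie next to each other on mouse chromosome 18. Members were chosen by gene symbol alone. The rule took 55 of the 21749 genes of the deposited table: 14 of the alpha, 20 of the beta and 21 of the gamma cluster. The levels came from messenger RNA bound to tagged ribosomes in cortical astrocytes (translating ribosome affinity purification, TRAP). All mice, of a mixed B6;FVB background, carried the transgene Tg(Aldh1l1-EGFP/Rpl10a)JD130Htz, in which a fluorescent form of ribosomal protein L10a is expressed from regulatory sequence of the astrocyte gene Aldh1l1. The 4 groups were females in metestrus (8 libraries), females in proestrus (3), females in estrus (4) and males (4), with all females taken at 09:00. Age of the mice, hour of collection of the males and pooling of animals within a library were not stated in the labels.

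Clustered protocadherins bind the same isoform on a neighbouring cell, and the combination a cell displays lets it tell its own processes from those of other cells. Each variable exon has its own promoter. In neurons the architectural protein CTCF and the cohesin complex bring a distal enhancer to a few promoters chosen at random, while DNA methylation keeps the others silent. Each alpha and gamma variable exon is spliced to constant exons common to its cluster, whereas a beta gene is a complete coding exon without a common cytoplasmic part. The last genes of the alpha and gamma clusters, called C-type, are regulated apart from the rest and are found more uniformly across cells. Gamma protocadherins of astrocytes take part in contact between astrocytes and neurons and in the formation of synapses.

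The structure matters for the measurement. In the GENCODE M21 annotation, to which all 55 members were matched, the exons common to the alpha cluster hold 2860 bases and those common to the gamma cluster 2119 bases. Bases found in another member made up 48.6% to 54.9% of the longest transcript of an alpha gene. For gamma genes the share was 41.7% to 47.1%, apart from Pcdhga4 with 66.8%, whose 3157 such bases reach beyond the common exons. All 20 beta genes had a single-exon longest transcript, with at most 9.67% of its bases in another member. Such bases were counted by position in the genome, and likeness of sequence between members was not measured. Reads from common exons can be split between members by the quantification, and the effect of this on the levels of single alpha and gamma genes was not tested. Some members also have a transcript that is mostly common bases. For Pcdhgc4 it has 2272 bases of which only 153 are its own. Pcdhgc5 has one of 593 bases with 147 of its own, and Pcdha11 one of 625 with 205.

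The deposited log2 values summed, after taking them back from the log scale, to 1.98e+07 to 2.56e+07 per library, and sequencing depth is unknown. Values of log2 3.32 (10 before the log) or more in at least 3 libraries were required for a test, which 20644 genes passed. Of the members, 54 passed. Pcdhgb5 did not, because it reached that minimum in 1 library, and its values ranged from -1.26 to 4.42 with a mean of 1.72.

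Gamma members made up most of the summed level in every library, and that sum was mostly Pcdhgc4. Per kilobase of longest transcript, the gamma cluster held 78.3% to 89.8% of the members' sum over the 19 libraries, with a median of 86.1%. The alpha cluster held 4.29% to 11.2% and the beta cluster up to 12.1% (median 6.92%) on the same scale. Pcdhgc4 alone held 57.2% to 80.4% of the members' sum per kilobase, and it was the highest gamma gene in 19 of 19 libraries. Without length scaling, all members together made up 0.0379% to 0.0633% of a library's summed values. In such bulk samples fewer cells of a type and less RNA per cell cannot be told apart.

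**Figure D1:**
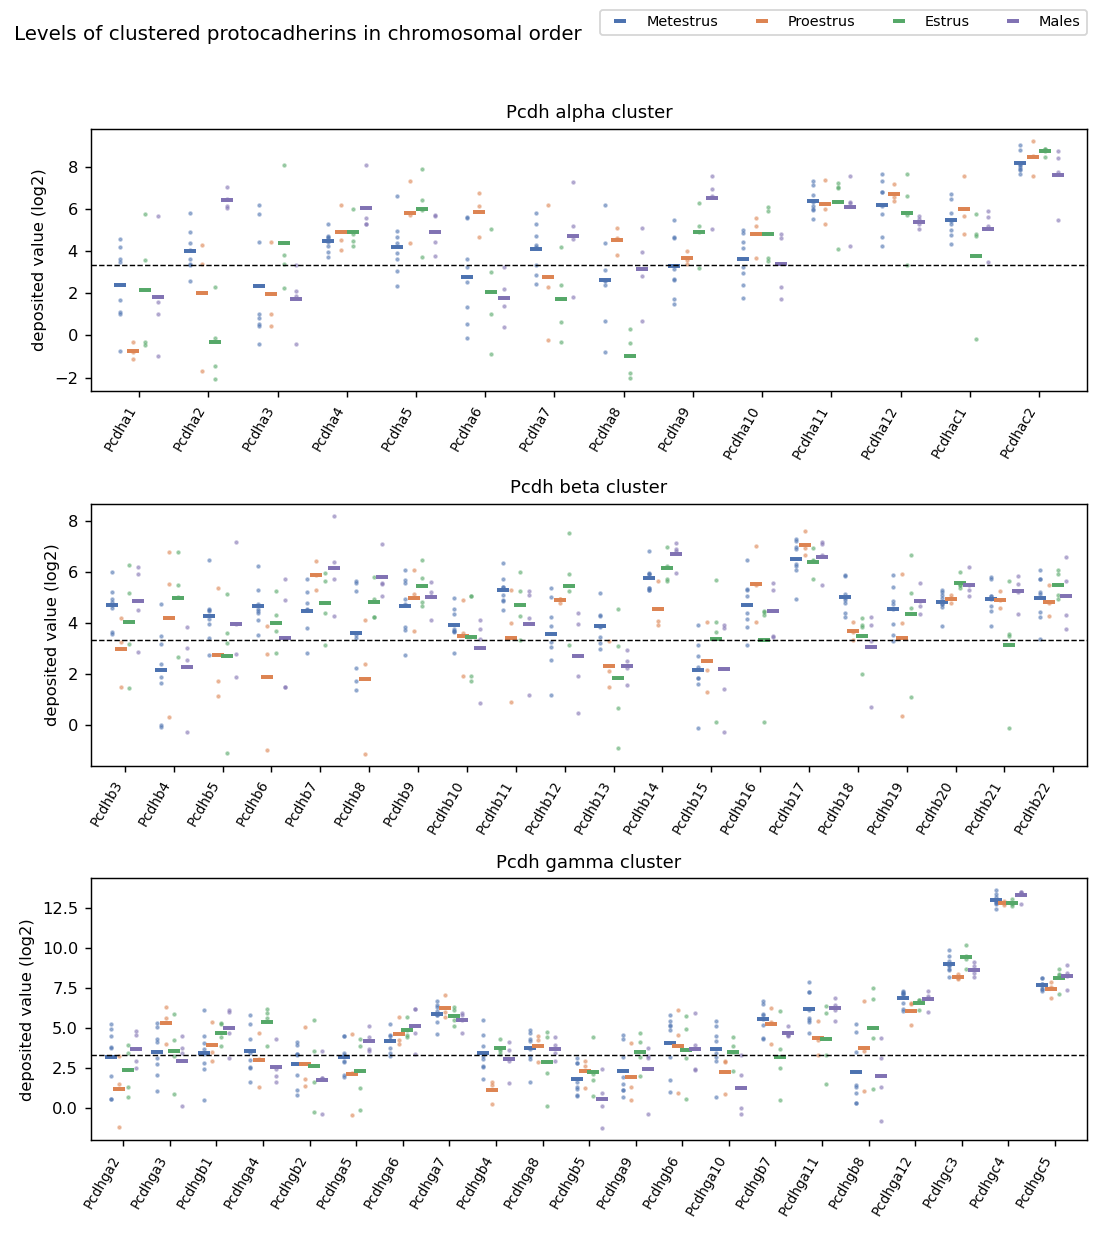
Deposited log2 values (vertical axis) of the 55 members, in the order of the genes along each cluster (horizontal axis), with a small point for each library, a bar for each group mean and a dashed line at the minimum of 3.32. Values were not divided by length. Group means of the C-type genes Pcdhac2, Pcdhgc3, Pcdhgc4 and Pcdhgc5 at the ends of the alpha and gamma clusters lie above those of the other members, and most other members have libraries on both sides of the minimum.

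Among single members, levels per kilobase were highest for 4 of the 5 C-type genes. Mean log2 value per kilobase was 10.64 for Pcdhgc4, 6.64 for Pcdhgc3, 5.66 for Pcdhac2 and 5.61 for Pcdhgc5. The highest variable genes followed, with 4.35 for Pcdhb17, 4.30 for Pcdhga12, 3.87 for Pcdha11 and 3.60 for Pcdha12. Pcdhac1, the other C-type alpha gene, had 2.68, below Pcdhac2, Pcdha11 and Pcdha12. At the low end were Pcdha1 with -0.67, Pcdhgb5 with -0.50 and Pcdha8 with -0.13 on this scale. Levels were higher toward the end of the alpha cluster, where the Spearman correlation of gene order with level per kilobase was 0.74 over 14 genes. It was 0.49 over the 21 gamma genes and 0.06 over the 20 beta genes. For beta genes this depended on the length scaling, since the correlation with the deposited values was 0.42, against 0.74 for alpha and 0.50 for gamma genes. Gene order was taken from RefSeq, and these genes share their libraries and, in alpha and gamma, their constant exons.

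Few members were detected in every library. Deposited values reached the minimum in all 19 libraries for 4 alpha, 4 beta and 5 gamma genes, 13 of 55 in all, and in fewer than 10 libraries for 14 genes. A single library had 7 to 13 of the 14 alpha genes, 11 to 19 of the 20 beta genes and 12 to 17 of the 21 gamma genes at or above it. The medians of these counts per group lay between 9.5 and 11 for alpha, 13 and 17 for beta, and 13 and 16 for gamma. As a guide to precision, the median of the members' mean deposited values was 4.19 in the alpha, 4.34 in the beta and 3.68 in the gamma cluster, against 7.59 over all tested genes.

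Pcdhgc4, a gamma isoform needed for the survival of cortical interneurons, had the narrowest range of the C-type genes. Its deposited log2 value was 12.40 to 13.59 in metestrus (median 12.89, n = 8). The proestrus libraries had 12.66, 12.89 and 12.77, estrus libraries 13.02, 12.76, 12.58 and 12.80, and males 13.41, 12.76, 13.46 and 13.48. All groups overlapped. The fold changes were -0.25 ± 0.24 (log2, SE of the fit) for proestrus against metestrus, 0.03 ± 0.23 for estrus against proestrus and 0.33 ± 0.20 for males against metestrus. The last had a 95% interval of -0.08 to 0.75 and an adjusted p of 0.974 by limma. The part of the short Pcdhgc4 transcript in these values was not tested.

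Pcdhgc3, which acts on dendrite branching through the scaffold protein Axin1, had its lowest group mean in proestrus. Its log2 values there were 8.13, 8.36 and 8.05. Estrus libraries had 9.51, 9.27, 10.20 and 8.68, and each of them lay above all proestrus libraries. Metestrus ranged from 8.17 to 9.89 (median 8.91, n = 8) and males had 8.15, 8.45, 9.14 and 8.84, both overlapping the proestrus values. The estrus to proestrus change of 1.22 ± 0.36 (log2, SE) had an unadjusted p of 0.00248 and did not pass the adjusted threshold by limma (adjusted p = 0.0927). Proestrus against metestrus gave -0.82 ± 0.38 (adjusted p = 0.360 by limma). Leaving out the estrus library of batch 3 (replicate 4) moved the first of these to 1.56 with a limma adjusted p of 0.0372, the lowest over its alternatives, which reached 0.301.

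Pcdhgc5 binds GABA-A receptors at synapses. It had 7.84, 7.53 and 6.89 in proestrus and 8.67, 8.35, 8.33 and 7.14 in estrus, with 7.32 to 8.15 in metestrus (median 7.68, n = 8). Males had 8.25, 8.93, 7.34 and 8.43. All groups overlapped, and the changes of 0.63 ± 0.31 (log2, SE) for estrus against proestrus and 0.49 ± 0.27 for males against metestrus did not pass the threshold by limma (adjusted p = 0.363 and 0.974).

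Pcdhac2, known for the tiling of serotonergic axons, was the highest alpha gene per kilobase in 18 of 19 libraries and held 4.49% to 54.1% of the cluster's sum per kilobase. Its log2 values were 7.65 to 9.04 in metestrus (median 8.02, n = 8), and 9.22, 8.54 and 7.58 in proestrus. Estrus libraries had 8.86, 8.87, 8.73 and 8.46, and males 5.47, 8.74, 8.41 and 7.75. Male replicate 1 stood below every other library. In that library Pcdha4, at 8.10, was the highest alpha gene. Over the 4 comparisons the fold changes of Pcdhac2 ran from -0.61 ± 0.47 to 0.56 ± 0.54 (log2, SE), and without male replicate 1 the males against metestrus value was 0.10.

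Pcdhac1 was less even. Its values were 4.33 to 6.72 in metestrus (median 5.36, n = 8), 4.82, 7.54 and 5.65 in proestrus, and 5.64, 5.90, 3.50 and 5.21 in males. Estrus had 4.71, 4.80 and 5.79 but -0.16 in replicate 1. The estrus to proestrus change was -2.14 ± 1.01 (log2, SE) with an adjusted p of 0.332 by limma. Without estrus replicate 1 it was smaller in size, at -0.90.

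**Figure D2:**
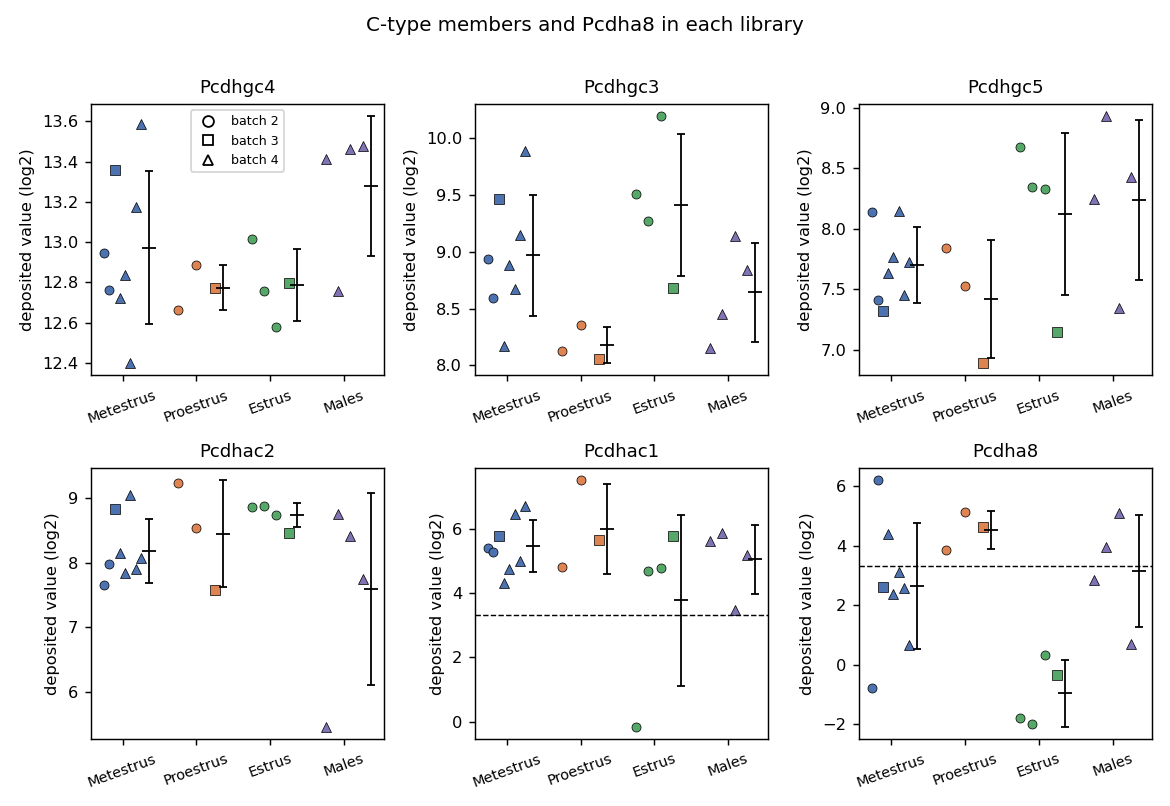
Deposited log2 value (vertical axes) of 6 members in each library by group (horizontal axes), with marker shape for batch 2, 3 or 4, and mean ± SD of the group at its right. The dashed line in the panels of Pcdhac1 and Pcdha8 is the minimum of 3.32. Pcdhgc3 is at 8.05 to 8.36 in the 3 proestrus libraries and at 8.68 or more in estrus, and all 4 estrus libraries of Pcdha8 lie below the minimum.

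The labels give 3 batches. Batch 4 took in every male library beside 5 of metestrus. Proestrus and estrus were confined to batch 2 (2 and 3 libraries, with 2 of metestrus) and batch 3 (1 library per stage). Group and batch were fitted together across all tested genes. Stage differences therefore rest on batches 2 and 3, and males against metestrus on batch 4. The proestrus to metestrus, estrus to proestrus and estrus to metestrus comparisons share libraries pairwise, and their values are given side by side.

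A single member passed the adjusted threshold in the 4 comparisons. Pcdha8, a variable alpha gene, was lower in estrus than in proestrus, by limma (log2 change -5.46 ± 1.30 SE, unadjusted p = 0.000395, adjusted p = 0.0453). Its log2 values were 3.84, 5.12 and 4.61 in proestrus and -1.79, -2.01, 0.32 and -0.36 in estrus, without overlap. Metestrus ran from -0.77 to 6.21 (median 2.60, n = 8) and overlapped both, though the estrus values of -1.79 and -2.01 lay below all of it. Males had 2.84, 3.96, 5.11 and 0.68. All estrus values were below the minimum of 3.32, so the size of the change rests on values where the log scale stretches small differences. With 10 added before the log it was -1.68 with a limma adjusted p of 0.133. The adjusted p ranged from 0.0246 to 0.230 over its alternatives, and leaving out any of the 7 libraries of these groups ended the call, with 0.0520 to 0.161. In this comparison 1 of 54 members was called (1.85%), against 0.94% of all tested genes.

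At an unadjusted p under 0.05, 11 of 54 members (20.4%) differed between estrus and proestrus, 6 higher and 5 lower, against 14.5% of all tested genes. The higher genes included Pcdhb14 (1.56 ± 0.51, log2 and SE), Pcdhb8 (3.00 ± 1.15), Pcdhgb4 (2.64 ± 0.86) and Pcdhga4 (2.24 ± 0.94). Pcdhb14 had 4.08, 5.64 and 3.93 in proestrus and 5.71, 5.62, 6.97 and 6.21 in estrus, overlapping at proestrus replicate 2. Pcdhgb4 had 1.45, 0.28 and 1.60 in proestrus, all under the minimum, and 3.40, 3.54, 3.69 and 4.32 in estrus, all above it. Lower in estrus were Pcdha6 (-3.66 ± 1.33) and Pcdhb16 (-2.40 ± 0.82), whose estrus replicate 4 was at 0.091 while the other estrus libraries had 4.29 to 4.45. Pcdha1 (3.11 ± 1.48) and Pcdhgb7 (-2.09 ± 0.89) completed the set with Pcdhgc3, Pcdhac1 and Pcdha8. Apart from Pcdha8, none passed the adjusted threshold by limma (adjusted p = 0.0927 to 0.340). Without proestrus replicate 3, Pcdhb8 reached 4.64 with an adjusted p of 0.0499, within 0.0499 to 0.702 over its alternatives. Without proestrus replicate 2 it was 1.31, with the highest of these adjusted p values by limma. Over all 54 members 35 fold changes were positive (64.8%, median 0.26), against 52.0% and a median of 0.02 over all tested genes.

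Proestrus against metestrus gave 0 of 54 members past the adjusted threshold by limma, against 0.988% of all tested genes. At an unadjusted p under 0.05 there were 6 members (11.1%), 1 higher and 5 lower, against 13.1% of all tested genes. Higher in proestrus was Pcdha6 (2.95 ± 1.42, log2 and SE), with 4.67, 6.74 and 6.15 in proestrus and -0.14 to 5.60 in metestrus. Lower were Pcdha1 (-3.43 ± 1.58), Pcdhb6 (-2.68 ± 1.15), Pcdhb14 (-1.20 ± 0.54), Pcdhgb4 (-2.20 ± 0.92) and Pcdhgc3, as given above. Proestrus values of Pcdha1 were -0.33, -0.80 and -1.11, all below the minimum, and metestrus ranged from -0.72 to 4.57. Next in their clusters by p were Pcdha2 (-1.98 ± 1.25), Pcdhb11 (-1.84 ± 0.98) and Pcdhga11 (-1.78, with a 95% interval of -3.87 to 0.30). The Pcdha2 value rested on single libraries, being -0.059 without proestrus replicate 2 and -3.46 without proestrus replicate 3. Over the 54 members 23 fold changes were positive (42.6%, median -0.20), against 41.9% and -0.09 over all tested genes.

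Between estrus and metestrus 0 of 54 members passed the adjusted threshold by limma, against 0.0872% of all tested genes. At an unadjusted p under 0.05 there were 4 members (7.41%), all lower in estrus, against 11.3% of all tested genes. Pcdha2 had the largest of these changes (-4.27 ± 1.17, log2 and SE, limma adjusted p = 0.159). It had 2.30, -2.07, -0.13 and -1.43 in estrus and 2.59 to 5.79 in metestrus, so the groups did not overlap. All estrus values were below the minimum, so the size of the change rests on values where the log scale stretches small differences. Over the alternatives the Pcdha2 change ran from -5.19 to -1.19. Pcdha8 (-3.62 ± 1.30), Pcdha7 (-2.54 ± 1.14) and Pcdhgb7 (-2.33 ± 0.89) were the others. Without the batch term 2 members were called by limma, Pcdha2 (-4.35, adjusted p = 0.00901) and Pcdha8 (-3.61, adjusted p = 0.0401). Over their alternatives the adjusted p ran up to 0.562 and 0.703. The next beta genes by p were Pcdhb13 (-2.01 ± 0.98), Pcdhb4 (2.86 ± 1.41) and Pcdhb21 (-1.71 ± 0.85), and the next gamma genes were Pcdhga11 (-1.85 ± 0.94) and Pcdhga4 (1.84 ± 0.94). Of the 54 fold changes 25 were positive (46.3%, median -0.05), against 43.5% and -0.07 over all tested genes.

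Males against metestrus gave 0 of 54 members past the adjusted threshold by limma, against 0.0242% of all tested genes. At an unadjusted p under 0.05 there were 8 members (14.8%), 6 higher and 2 lower in males, against 5.33% of all tested genes. There were 3 alpha genes among the higher ones: Pcdha9 (3.27 ± 0.78, log2 and SE), Pcdha2 (2.38 ± 1.03) and Pcdha4 (1.65 ± 0.60). Pcdha9 had 6.94, 7.56, 5.07 and 6.61 in males and 4.68, 2.62, 4.64, 2.70 and 1.74 in the metestrus libraries of the same batch, without overlap. Metestrus replicate 3, of batch 3, reached 5.47. The unadjusted p of Pcdha9 was 0.000381 and its adjusted p by limma was 0.478. Pcdha2 had 6.47, 6.03, 7.02 and 6.14 in males, above all 8 metestrus libraries, which ended at 5.79. The beta genes Pcdhb7 (1.68 ± 0.71), Pcdhb8 (2.14 ± 1.01) and Pcdhb14 (0.96 ± 0.44) were also higher, whereas Pcdhb18 (-1.97 ± 0.66) and Pcdhga10 (-2.39 ± 0.94) were lower. Pcdha4 had 8.10 in male replicate 1 and 5.27 to 5.57 in the other male libraries, and without that replicate its change was 0.96. Pcdhgb1 (1.61 ± 0.89) and Pcdhgc5 followed among the gamma genes. Of the 54 fold changes 25 were positive (46.3%, median -0.05), against 55.3% and 0.04 over all tested genes.

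**Figure D3:**
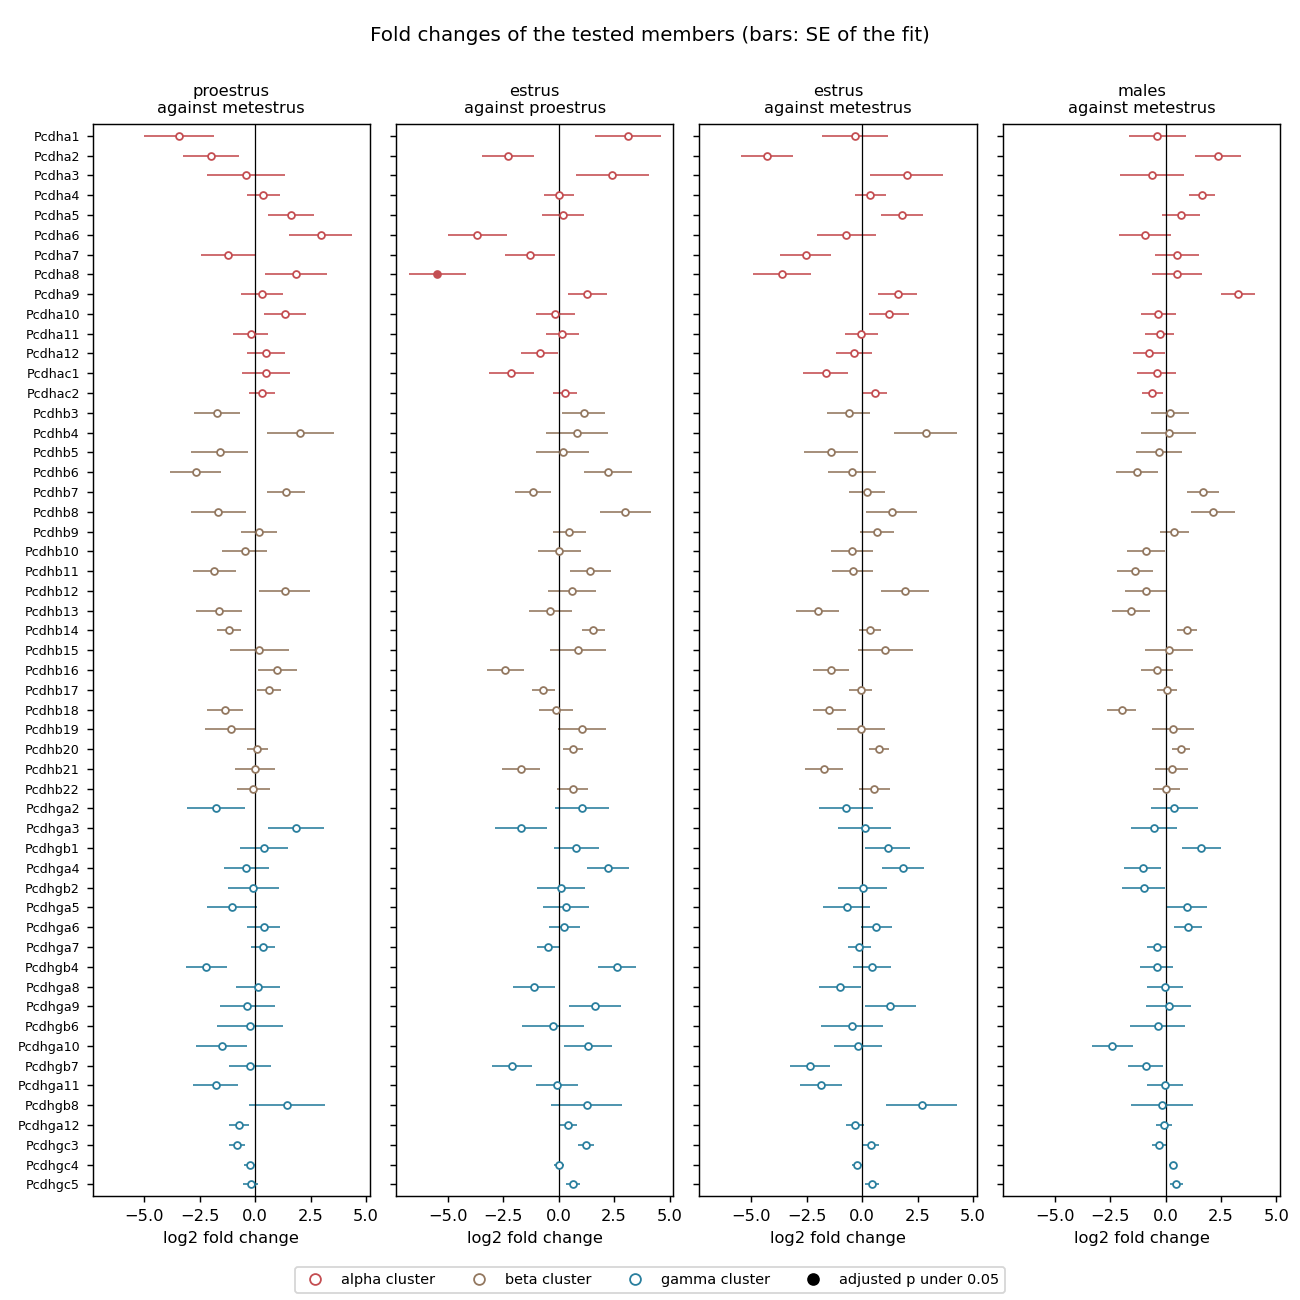
Log2 fold change (horizontal axes) of the 54 tested members (rows, in cluster order) in the 4 comparisons, with bars for the SE of the fit and colour for the cluster. Filled points passed the adjusted threshold of 0.05, which only Pcdha8 did, in estrus against proestrus. Points of the low variable genes spread widely on both sides of 0 with long bars, and those of Pcdhgc4 lie between -0.25 and 0.33.

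Precision set what could be seen for the variable genes. The median SE of the members' fold changes was 1.01 for proestrus against metestrus, 0.95 for both estrus comparisons and 0.83 for males against metestrus. Over all tested genes it was 0.37, 0.35, 0.35 and 0.30. Even changes well beyond 2 SE could miss the adjusted threshold. Pcdha9 in males against metestrus, at 3.27 ± 0.78 (log2, SE), had a limma adjusted p of 0.478. A missed threshold therefore does not show equal levels. Of 52 fold changes of named members, C-type genes included, 38 moved by over 1.5 times when some single library was left out. Some of these were near 0, such as 0.028 for Pcdhgc4 in estrus against proestrus, where a small shift exceeds that ratio.

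For most members the spread between libraries lay above what is usual for their level. After group and batch were fitted, the residual SD was above the trend of all tested genes at the same mean value in 48 of 54 members, namely 14 of 14 alpha, 17 of 20 beta and 17 of 20 gamma genes. Over all tested genes the share was 54.2%. The fit draws the variance of each gene toward that trend, so the SE of members above it can come out small. The part of this in the members' shares at an unadjusted p under 0.05 was not tested. The median ratio of residual SD to trend was 1.59 in alpha, 1.38 in beta and 1.26 in gamma, against 1.03 over all tested genes. It was highest for Pcdhac2 (2.30), Pcdhgb8 (2.09) and Pcdhgb6 (2.08). Pcdhb20 was the steadiest member at 0.51, and its values stayed between 3.87 and 6.18. The beta genes, which overlap other members at few or no genome positions, had a median between those of the other clusters. Their likeness of sequence to each other was not measured, and the part of read splitting in these ratios was not tested.

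**Figure D4:**
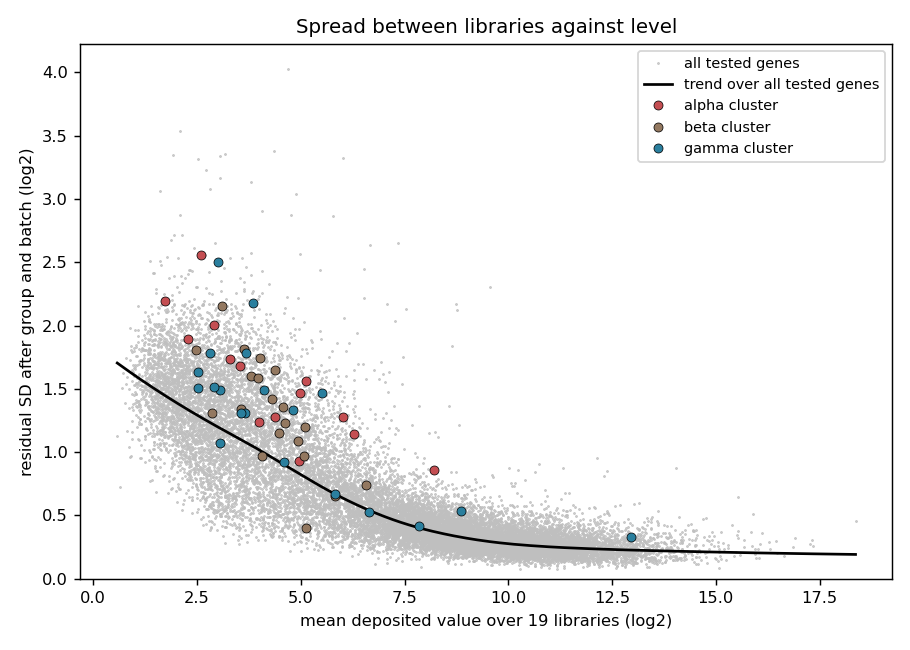
Residual SD after fitting group and batch (vertical axis, log2) against the mean deposited log2 value over 19 libraries (horizontal axis) for all tested genes in grey and the 54 tested members in colour. The line is the trend over all tested genes. Of the members 48 lie above the line, and Pcdhb20 lies farthest below it.

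Residuals of the members had almost no average correlation. The mean pairwise correlation of residuals over 19 libraries was 0.001 among alpha, 0.004 among beta and -0.01 among gamma genes, with 0.04 over all tested genes. Between clusters it ran from -0.02 to 0.02. All of these share the 19 libraries and the 4 missing directions of the table. Single pairs went both ways. The largest in size were -0.89 for Pcdhgb8 with Pcdhga2, 0.82 for Pcdhb9 with Pcdhga8 and 0.79 for Pcdha6 with Pcdha8. They are the extremes over all pairs of the 54 tested members. Extremes over other genes were not taken for reference, and no test was run on these pairs.

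The beta cluster had no dominant gene. Pcdhb17 was the highest beta gene per kilobase in 12 of 19 libraries and held 6.01% to 23.9% of the cluster's sum on that scale, and 6 other genes were highest in the rest. Its deposited log2 value was 7.58, 6.65 and 6.93 in proestrus, against 6.44, 5.70, 6.41 and 6.91 in estrus. Metestrus ranged from 4.94 to 7.26 and males had 6.65, 7.15, 5.46 and 7.06. All groups overlapped. The lowest beta genes by deposited value were Pcdhb15, with a mean of 2.47 and a range of -0.29 to 5.67, and Pcdhb13, with a mean of 2.87 and a range of -0.90 to 5.16. In the gamma cluster Pcdhgb2 was second lowest, with a mean of 2.52 and a range of -0.38 to 5.51.

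Summed over each cluster, the levels of the groups overlapped. The log2 of the summed alpha values was 9.47 ± 0.32 (mean and SD) over the 8 metestrus libraries and 9.85 ± 0.59 over the 3 of proestrus. The 4 estrus libraries had 9.93 ± 0.14 and the 4 male ones 9.76 ± 0.21. For the beta cluster it was 9.24 ± 0.31, 9.26 ± 0.39, 9.46 ± 0.41 and 9.62 ± 0.22 in the same order, and for the gamma cluster 13.19 ± 0.35, 12.95 ± 0.11, 13.08 ± 0.14 and 13.45 ± 0.29. Closest to a separation were proestrus and males in the gamma cluster, where proestrus ended at 13.06 and 3 of 4 male libraries lay above that, with the lowest at 13.02. These 2 groups share no batch, so group and batch cannot be told apart between them. Gamma without Pcdhgc4 was 10.30 ± 0.32, 9.87 ± 0.08, 10.57 ± 0.45 and 10.25 ± 0.21. On this sum the 3 proestrus libraries (9.81 to 9.97) lay just below the 4 estrus ones (9.98 to 11.05) and overlapped metestrus and males. No test was run on these sums.

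**Figure D5:**
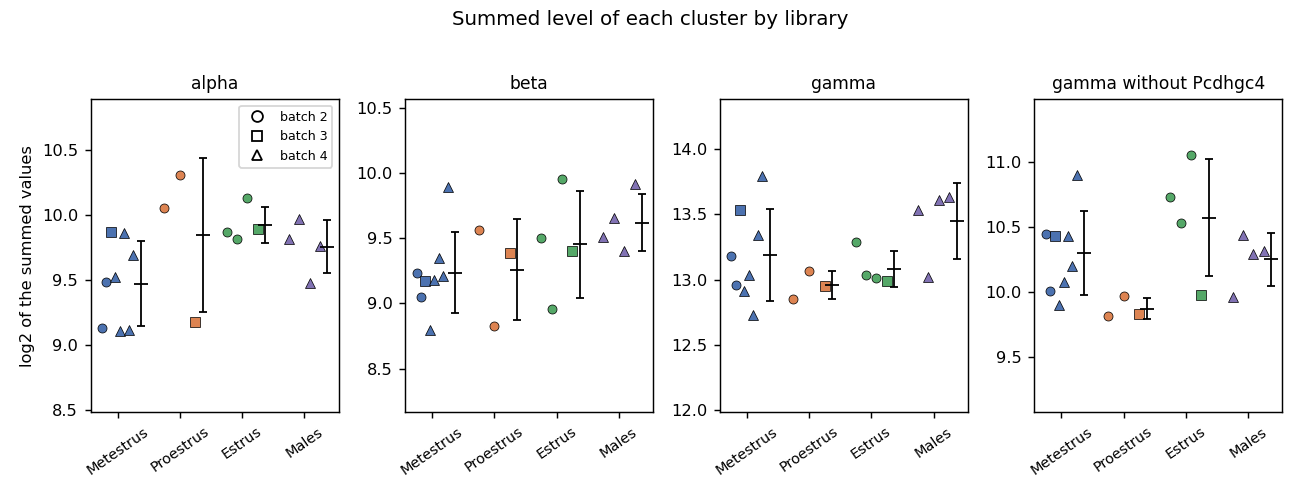
Log2 of the summed values of each cluster (vertical axes) in each library by group (horizontal axes), with marker shape for batch 2, 3 or 4 and mean ± SD of the group at its right. Every panel spans the same number of log2 units. Groups overlap for alpha and beta, and for gamma without Pcdhgc4 the proestrus libraries end at 9.97 where the estrus ones begin at 9.98.

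Genes that act with the clusters mostly did not pass the threshold. Of 20 genes of promoter choice and silencing (CTCF, cohesin and its loaders, DNA methylation and demethylation enzymes) none passed in 3 of the comparisons by limma. In proestrus against metestrus 1 was lower, where 0.988% of all tested genes passed. That gene was Tet3, which oxidises methylated cytosine (-1.65 ± 0.34 log2 and SE, limma adjusted p = 0.0194). Its mean log2 value was lowest in proestrus at 7.89, with 8.94 in estrus, 9.57 in metestrus and 9.76 in males. At an unadjusted p under 0.05 there were 2, 4, 0 and 0 of the 20 genes, in the order proestrus to metestrus, estrus to proestrus, estrus to metestrus and males to metestrus. These are 10%, 20%, 0% and 0% of the list, against 13.1%, 14.5%, 11.3% and 5.33% of all tested genes. Among the 4 were the cohesin subunits Smc3 (0.61 ± 0.22) and Stag1 (0.83 ± 0.25).

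None of 22 genes for cytoplasmic partners and cleavage of protocadherins (focal adhesion kinases, the WAVE complex, neuroligins, gamma-secretase and ADAM10) passed the adjusted threshold by limma, with 5, 1, 2 and 0 at an unadjusted p under 0.05 in the same order (22.7%, 4.55%, 9.09% and 0%, against the same shares of all tested genes). Axin1, the partner of Pcdhgc3, gave -0.76 ± 0.22 in proestrus against metestrus (log2 and SE, limma adjusted p = 0.107). Of 11 measured protocadherins outside the clusters, Pcdh15 of the hair-cell tip link was lower in estrus than in proestrus (-2.14 ± 0.51, limma adjusted p = 0.0468). In that comparison 0.94% of all tested genes passed, and no other of the 11 passed in any comparison. At an unadjusted p under 0.05 there were 1, 3, 2 and 0 of the 11 in the same order. These are 9.09%, 27.3%, 18.2% and 0%, against 13.1%, 14.5%, 11.3% and 5.33% of all tested genes. Positive fold changes numbered 7, 3, 1 and 7 of 11, against 41.9%, 52.0%, 43.5% and 55.3% of all tested genes. Median fold changes of the 3 lists stayed between -0.21 and 0.09.

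No input or unbound RNA was among the libraries, so enrichment of astrocyte RNA could not be measured from marker levels. All 14 listed astrocyte marker genes were found. Their log2 summed level was 18.46 to 18.98 in metestrus and 18.41 to 19.16 over the other groups. Markers of other cells were also present, with neuronal sums of 16.56 to 17.39, oligodendrocyte sums of 14.26 to 15.16, oligodendrocyte precursor sums of 12.37 to 13.03, microglial sums of 10.62 to 11.38 and endothelial and mural sums of 9.91 to 11.56. Neurons carry clustered protocadherins too, and the part of neuronal RNA in the members' levels was not tested. Choroid plexus and ependymal markers reached 13.13 in a metestrus and 13.87 in a male library. None of the 61 listed markers passed the adjusted threshold by limma, with 3, 8, 6 and 8 at an unadjusted p under 0.05 in the order given above. These are 4.92%, 13.1%, 9.84% and 13.1% of the markers, against 13.1%, 14.5%, 11.3% and 5.33% of all tested genes. In males against metestrus the 8 were 4 of 14 astrocyte, 2 of 13 neuronal and 2 of 8 endothelial and mural markers. Astrocyte markers there had a median log2 change of 0.19, with 12 of 14 positive, and endothelial and mural markers 0.50, with 8 of 8 positive. Their part in the members' values in males was not tested. In estrus against proestrus, where Pcdha8 was called, the 8 were 1 neuronal, 1 oligodendrocyte, 1 precursor, 3 endothelial and mural and 2 choroid plexus and ependymal markers, and their part in that call was not tested.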

How the data were processed

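The authors deposited log2 values for 21749 genes in 19 libraries, one column per library. Per the submitters' processing notes the build was GRCm39 and the tools included STAR, Salmon and edgeR, with no versions or order of steps. Scaling, pseudocount and any correction for gene length are not given in the sources consulted. The gene-centred table has rank 14 instead of 18, and rank 11 instead of 15 with groups fitted, so 4 directions of variation between libraries are missing from the deposited values. With batch fitted as well the rank stayed at 11, instead of 13. Residual spreads, correlations and the fit without a batch term therefore describe values that already lack this variation.

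limma 3.58.1 in R 4.3.3 (trend and robust prior) fitted group and batch to 20644 genes with a value of at least log2 of 10 in at least 3 libraries. Tests were two-sided, with Benjamini-Hochberg adjustment over all tested genes at 0.05. Since the fit uses 13 residual degrees of freedom and the table supports 11, p-values err on the small side. Separate animals are not stated per library, and p-values therefore measure spread among libraries, which may be technical. Replicate numbers, given in the order of the samples, are names only. The script was tested on simulated data for proestrus against metestrus, with independent noise, no batch effect and no missing directions. That run cannot show how the p-values behave on the deposited values. Gene lengths and common exons came from GENCODE M21 and gene order from RefSeq, both on GRCm38, which differs from the build of the files, so no coordinates are given.

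Members and lists were chosen with earlier results of these data known. Named are the C-type genes, members past the threshold, in each comparison the 3 members with the smallest p in each cluster, and the 2 highest and 2 lowest of each cluster by mean value. A few others with an unadjusted p under 0.05, or with a library that stood apart, were named after their values were seen. Alternatives changed the filter, pseudocount, scaling, batch term, variance prior, degrees of freedom, libraries in the fit and pairing.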

Additional observations from a re-analysis of the deposited data

Results flagged for a closer look

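In 96 groups of 4 to 10 libraries, over 28 members and cluster sums, the library at an end was compared with its nearest neighbour, and in 8 groups the gap took up an unusually large part of the group's range. Chance gives about 5% of groups. A library below the others of its group was male replicate 2 for Pcdhgc4 (12.76, the others from 13.41 to 13.48) and for the summed gamma cluster (13.02, the others from 13.54 to 13.63). Estrus replicate 4 was low for Pcdhb16 (0.091, the next at 4.29), and estrus replicate 1 was low for Pcdhb18 (2.01, the next at 3.82). A library above the others was metestrus replicate 8 for Pcdhb14 (6.81, the next at 5.96) and male replicate 3 for Pcdhgb7 (5.10, the next at 4.59). Male replicate 1 was high for Pcdha4 (8.10, the next at 5.57), and estrus replicate 1 for the summed gamma cluster (13.29, the next at 13.04).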

How the results depend on the processing

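In proestrus against metestrus and males against metestrus 0 members were called under each alternative run. In estrus against proestrus 1 member was called without the filter, with centred libraries and without batch. It was 0 with the stricter filter (13 members tested, Pcdha8 not among them), with 10 added before the log, without trend and robust prior, with the missing directions counted and with the shared batches only. Leaving out single libraries gave 0 to 1, and the 1 was then Pcdhgc3 or Pcdhb8. In estrus against metestrus 2 were called without the batch term, where calls over all genes rose from 18 to 899, and 0 otherwise. Of 948 fold changes of named members under alternatives, 924 kept direction and side of the threshold and 9 changed sign, each on leaving out 1 library. In the main fit only Pcdha8 was past the threshold, in 1 comparison. Keeping a side therefore mostly meant staying short of it, and does not show a stable size. Leaving out single libraries, Pcdhac2 ran from -0.086 to 0.90 in proestrus against metestrus, from -0.22 to 0.67 in estrus against proestrus and from -0.99 to 0.10 in males against metestrus. Pcdhac1 ran from -0.50 to 1.22 in proestrus against metestrus and from -0.68 to 0.12 in males against metestrus, and Pcdhgc4 from -0.063 to 0.12 in estrus against proestrus. The causes were not tested. With a replicate block on the title numbers of batch 4, 0 members were called. Same-numbered libraries correlated at -0.26 to 0.16. Whether the numbers pair them cannot be decided from these values, since directions of variation between libraries are missing from the deposited values. With libraries centred on their medians, the mean summed level of each cluster moved by less than 1 SD in each group. Depth is unknown, and low members are the least precise.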
